A study of Homo sapiens with 17 samples.

Results

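RNA of cells that floated free of a culture at 60 h was set against RNA of the cells that stayed attached in such a culture at the same time. The comparison used 2 of the 17 libraries of the series, and its members were chosen by their sample titles. The suspended library came from haematopoietic cells and the adherent library from a mixture of endothelial and haematopoietic cells, as the labels describe them. Both descend from human embryonic stem cells of the established line H1. Endothelial cells were derived from it in the presence of vitamin C, sorted for a GATA2/eGFP reporter (a green fluorescent protein read-out of the transcription factor GATA2) and plated again for 60 h. What the pair shares is thus the line, the reporter, the vitamin C and the time since plating. Vitamin C is a cofactor of the dioxygenases that demethylate histones and oxidise methylated DNA, and the series asks how it acts on the transition from endothelium to blood. Each group was 1 library of 1 cell line, so no test was possible, and differences between cultures cannot be told apart from differences between the suspended and the adherent state. The labels do not say how the fractions were collected, or whether they came from 1 dish.

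In the embryo, blood stem and progenitor cells arise from a specialised endothelium that lines the large arteries. Single endothelial cells of this haemogenic endothelium switch on RUNX1, loosen their junctions to neighbours and to the basement membrane, round up and enter the circulation. Notch, BMP and flow signals maintain arterial endothelium, whereas GATA, TAL1, GFI1 and MYB factors build the blood programme and, through GFI1 and GFI1B with their corepressors, silence the endothelial one, as shown in the mouse. A culture of this kind shows the release step as cells that leave the attached layer.

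The suspended library held 6957056 counts and the adherent library 8117075, so that 1 count stood for 0.144 and 0.123 CPM (counts-per-million of the library total). Genes of the mitochondrial genome took 7.44% of the suspended and 5.80% of the adherent counts, and genes above 0 numbered 22116 and 22466. Gene levels are in CPM and differences are log2 ratios of the suspended over the adherent CPM. Where 1 library had no count it was set to 3 counts, which makes the ratio a bound. Intervals are exact 95% intervals for the ratio of 2 counts. They cover counting error only and hold no variation between cultures. They may also be too narrow, since reads that carry no molecular identifier may be copies of 1 molecule. A gene was taken as measured at 5 CPM or more in the higher library, and as higher or lower in suspended cells from a 2-fold difference on.

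Of 12705 measured genes, 3562 (28.0%) differed at least 2-fold, 1665 higher (13.1%) and 1897 lower (14.9%) in suspended cells. The median log2 ratio was 0.14, and 10% of genes lay below -1.48 and 10% above 1.16. The higher side reached farther: 287 genes were at least 8-fold higher and 251 at least 8-fold lower, and 150 and 38 passed 16-fold. The log2 interval had a median width of 0.43 for genes at 20 CPM or more and of 1.13 below that. With TMM scaling, which assumes that most genes do not differ, all ratios shifted by -0.13 and the counts became 1332 higher and 2137 lower. Long noncoding genes split much as the whole did, with 183 higher and 196 lower of 1123 measured.

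**Figure D1:**
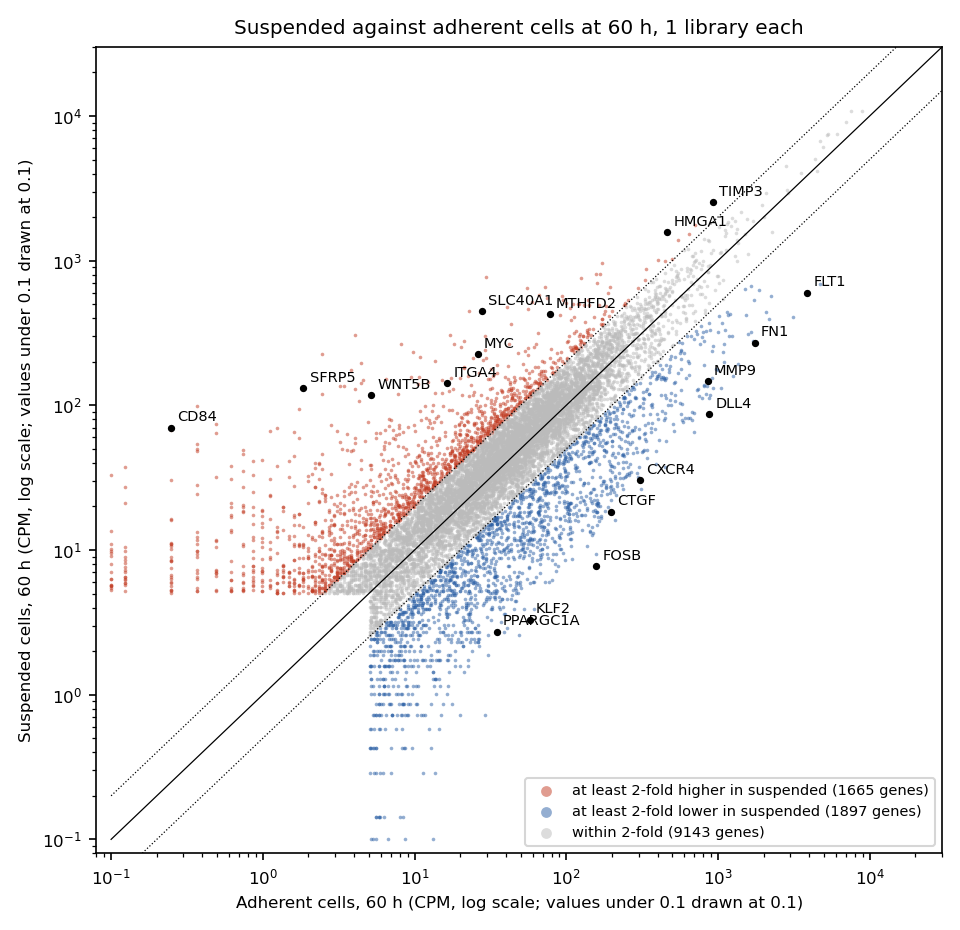
CPM of each of the 12705 measured genes in suspended (vertical) and adherent cells (horizontal) at 60 h, 1 library each, on log axes, with the line of equality and dotted lines at 2-fold. Red points are the 1665 genes at least 2-fold higher and blue points the 1897 at least 2-fold lower in suspended cells, and black points carry the names of genes given in the text, such as CD84 at the upper left and DLL4 at the lower right.

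Marker genes were read first, against the labels. Of 12 haematopoietic markers, all 11 that were measured were higher in suspended cells, with summed levels of 3358 CPM in suspended and 495 CPM in adherent cells. PTPRC, which encodes the pan-leukocyte antigen CD45, was too low to count as measured, at 3.16 CPM in suspended cells and 0 in adherent cells. All 14 endothelial markers were lower, from CLDN5 at a log2 ratio of -3.16 to APLNR at -1.33. Their summed level was 3002 CPM in suspended and 15054 CPM in adherent cells. None of the 14 was at 0 in the suspended library: CDH5, the cadherin of endothelial junctions, stood at 194 CPM in suspended and 1347 CPM in adherent cells. In the suspended library of 96 h the sum was 1168 CPM, with ROBO4 at 0. Not every marker was lower at 96 h than at 60 h in suspended cells. PECAM1 stood at 559 CPM at 96 h and 439 CPM at 60 h, and EMCN at 13.3 and 5.46 CPM. The suspended label was thus met by blood genes, while endothelial transcripts were lower but present. In bulk RNA, fewer cells of a type and less RNA of that type per cell cannot be told apart, which holds for every gene below.

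Among lineage markers, those of red cells and platelets had the highest sums in suspended cells. Of 12 measured erythroid markers 11 were higher in suspended cells, as were all 8 measured megakaryocyte markers, and the megakaryocyte list summed to 708 CPM in suspended and 44.6 CPM in adherent cells. Of 12 myeloid markers 3 were measured, CSF1R, TYROBP and LYZ, all higher in suspended cells, and their list summed to 70.9 CPM in suspended and 10.3 CPM in adherent cells. The granule enzymes ELANE and PRTN3 and the monocyte receptor CD14 had no count in either library. Of 8 lymphoid markers NKG7 was higher (6.04 against 0.246 CPM, 42 and 2 counts) and RAG1 was within 2-fold. Of 12 mesenchymal and smooth muscle markers 8 were measured, of which 6 were lower, and their sum was 260 CPM in suspended and 681 CPM in adherent cells. POSTN, a matrix protein of fibroblasts, went the other way at 8.48 CPM in suspended and 0.123 CPM in adherent cells. The epithelial keratins KRT8 and KRT18 were within 2-fold and KRT19 was higher, at 32.9 CPM in suspended and 11.2 CPM in adherent cells. The cardiac regulator NKX2-5 was lower (4.60 against 33.8 CPM). NANOG of pluripotent cells was at 0 in both, and the only measured member of its list, DPPA4, was within 2-fold. How far these other cell types bear on the lists below was not tested.

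Besides these markers, 46 lists of signalling, metabolic, adhesion, RNA, chromatin and cell cycle genes were described. Some members are also markers, such as KDR, FLT1, ITGA2B, ITGB3, SPN, LCP1, GATA1 and KLF1. The lists that hold them thus partly repeat the reading of the markers. Their counts are to be read beside the shares of all measured genes, 13.1% higher and 14.9% lower. The lists separated by kind. Lists of adhesion genes and of Notch, BMP, Hippo and immediate early signalling had medians below 0, and every list of RNA genes, DNA replication and mitosis had a median above the 0.14 of all measured genes.

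**Figure D2:**
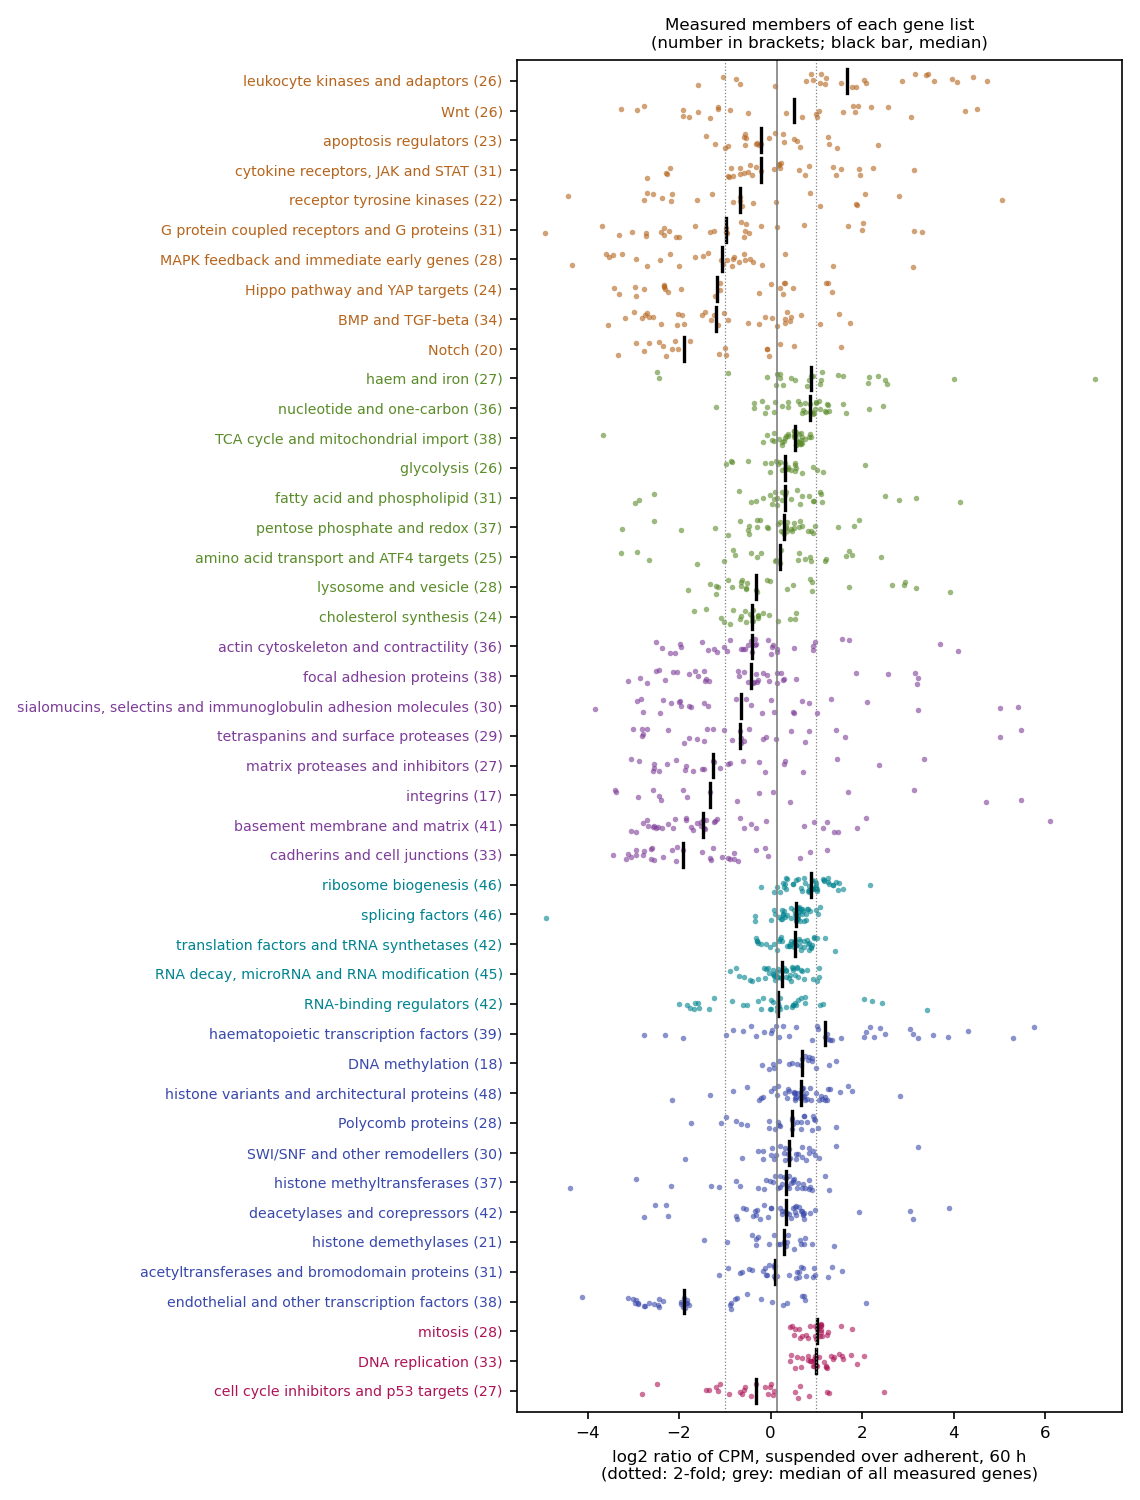
Log2 ratio of CPM, suspended over adherent cells at 60 h (1 library each), for every measured member of 45 of the 46 lists, coloured by kind of list, with a black bar at each list's median, dotted lines at 2-fold and a grey line at the median of all measured genes, 0.14. List medians ran from -1.91 for cadherins and cell junctions to 1.66 for leukocyte kinases and adaptors, and the members of most RNA lists lay closer together than those of signalling and adhesion lists.

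Receptors for growth factors and cytokines differed in both directions. Of 22 measured receptor tyrosine kinases 6 were higher and 9 lower in suspended cells, with a median log2 ratio of -0.67. KIT, the receptor for stem cell factor on blood progenitors, stood at 44.6 CPM in suspended cells and 10.7 CPM in adherent cells (2.06, interval 1.71 to 2.42). FGFR3, a fibroblast growth factor receptor, stood at 47.1 CPM in suspended and 12.8 CPM in adherent cells. The receptors for vascular endothelial growth factors lay on the lower side. KDR had 694 CPM in suspended and 4699 CPM in adherent cells, FLT1 had 601 and 3880 CPM, and FLT4, the lymphatic receptor, had 56.3 and 337 CPM.

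Cytokine receptors and the JAK and STAT proteins behind them showed 7 higher and 4 lower of 31 measured, with a median of -0.22. The share past 2-fold was 35.5%, against 28.0% of all measured genes. PIM1, a kinase that STAT5 induces, stood at 214 CPM in suspended and 24.4 CPM in adherent cells (3.13, interval 2.92 to 3.35), and its relative PIM2 at 34.9 and 8.99 CPM. CSF2RB, the shared beta chain of the receptors for IL-3, IL-5 and GM-CSF, stood at 89.1 and 19.0 CPM. JAK2, which serves the erythropoietin and thrombopoietin receptors, and STAT5A were higher by 1.36 and 1.55 on the log2 scale. On the lower side were receptors of the IL-6 family: LIFR had 116 CPM in suspended and 756 CPM in adherent cells, and OSMR was lower by a log2 difference of 2.26. IL4R, the IL-4 receptor, had 25.2 and 123 CPM.

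The largest median of the 46 lists belonged to the kinases and adaptors of leukocyte signalling, with 18 higher and 2 lower of 26 measured and a median of 1.66. WAS, the Wiskott-Aldrich protein that couples receptors to actin, stood at 64.3 CPM in suspended and 5.91 CPM in adherent cells (3.44, interval 3.01 to 3.90), and the phosphatase PTPN7 at 80.5 and 6.78 CPM. BTK, the kinase that acts below antigen and collagen receptors, had 304 CPM in suspended and 29.1 CPM in adherent cells, and SYK, which acts above it, 155 and 17.4 CPM. FYN (133 against 272 CPM) and RASGRP3 (150 against 449 CPM), which are also used in endothelium, were the 2 on the lower side.

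Notch genes were lower as a group. Of 20 measured 13 were lower and 1 higher, with a median of -1.90. The arterial ligand DLL4 had 86.7 CPM in suspended cells and 872 CPM in adherent cells (-3.33, interval -3.45 to -3.21). The receptor NOTCH1 had 304 and 1235 CPM, and the target HEY1, a transcriptional repressor that acts in arterial endothelium, 32.3 and 249 CPM. DTX1, a ubiquitin ligase of the pathway, had 3.31 and 22.5 CPM. HES1, a target that blood progenitors also use, was within 2-fold at 36.5 and 38.7 CPM. HES6, which counteracts HES1, was the 1 member higher in suspended cells, at 24.0 CPM against 8.25 CPM.

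BMP and TGF-beta genes showed 19 lower and 3 higher of 34 measured (median -1.19). TGFBR3, the co-receptor betaglycan, had 26.6 CPM in suspended and 312 CPM in adherent cells. The BMP targets ID1 and ID3, which block helix-loop-helix factors, had 57.5 against 406 CPM and 43.1 against 342 CPM. The inhibitory SMAD6 and SMAD7, also targets, were lower by 1.24 and 2.05 on the log2 scale in suspended cells. The 3 higher members were the type I receptor TGFBR1 at 150 CPM in suspended and 53.3 CPM in adherent cells, ID4 at 40.1 and 12.1 CPM, and the latent TGF-beta binding protein LTBP1 at 154 and 73.3 CPM. So ID4 and the other 2 ID genes named stood on opposite sides.

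Wnt genes lay on both sides, with 12 higher and 10 lower of 26 measured and a median of 0.51. The ligand WNT5B stood at 118 CPM in suspended cells and 5.17 CPM in adherent cells (4.51, interval 4.06 to 4.99), and the co-receptor LRP5 at 52.3 and 6.28 CPM. TNFRSF19, a target, stood at 20.6 and 3.45 CPM. The lower members included WLS, which carries Wnt ligands to the cell surface, at 10.2 CPM in suspended and 69.2 CPM in adherent cells. TCF7L1, a repressor of Wnt targets, had 12.1 and 91.5 CPM, and DKK3, of the Dickkopf family, 4.02 and 38.6 CPM. SFRP5, a secreted Wnt antagonist that the list did not hold, was among the 15 largest ratios of all protein-coding genes at 50 CPM or more. It had 131 CPM in suspended and 1.85 CPM in adherent cells (6.15, interval 5.42 to 6.99). With TMM scaling 9 genes of the Wnt list passed 2-fold on the higher side.

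Immediate early genes and the feedback genes of MAP kinase signalling were lower for 15 and higher for 2 of 28 measured (median -1.06). FOSB had 7.76 CPM in suspended cells and 158 CPM in adherent cells (-4.35, interval -4.77 to -3.96), the smallest ratio among the genes the naming rule gave. FOS, its partner in the AP-1 factor, had 37.5 and 451 CPM, JUN had 25.9 and 198 CPM and EGR1 46.7 and 251 CPM. DUSP1, a phosphatase that switches MAP kinases off, had 12.8 and 148 CPM. The separate mixed-cell library of 60 h, described below, had 49.2 CPM of EGR1 and the suspended cells of 96 h had 57.7 CPM, so the EGR1 ratio rested on the adherent library. The mixed cells also lay nearer the suspended than the adherent level for JUN (65.3 CPM) and DUSP1 (55.8 CPM). MYC, counted in this list as an immediate early gene, was on the other side at 225 CPM in suspended and 26.1 CPM in adherent cells (3.11, interval 2.90 to 3.32). The other higher member was DUSP10, a phosphatase gene like DUSP1, at 24.6 CPM in suspended and 9.49 CPM in adherent cells. MYCN, a relative of MYC that the list did not hold, stood at 172 and 67.8 CPM.

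In the Hippo pathway 14 of 24 measured members were lower and 3 higher, with a median of -1.16. YAP and TAZ are coactivators that respond to attachment and tension, and the LATS and MST kinases hold them out of the nucleus. WWTR1, which encodes TAZ, had 81.9 CPM in suspended cells and 639 CPM in adherent cells, and YAP1 had 13.9 and 107 CPM. Their targets CTGF and CYR61 had 18.4 against 198 CPM and 17.1 against 169 CPM. The 3 higher members were LATS1 at 112 and 44.0 CPM, STK4, which encodes MST1, at 139 and 58.5 CPM, and the kinase activator MOB1A at 302 and 130 CPM. The other LATS kinase gene, LATS2, was lower by 1.11 on the log2 scale, and STK3, SAV1 and NF2, also on the kinase side, were within 2-fold.

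Of 31 measured G protein coupled receptors and G protein genes, 15 were lower and 5 higher (median -0.98). CXCR4, the receptor for the chemokine CXCL12, had 30.5 CPM in suspended cells and 304 CPM in adherent cells. RAMP2 and ADGRF5, endothelial receptor genes, had 6.04 against 77.0 CPM and 13.1 against 106 CPM. P2RX1, an ATP-gated channel of platelets kept in this list, stood at 151 CPM in suspended and 15.3 CPM in adherent cells. RGS18 and RGS10, which shorten G protein signals in platelets and leukocytes, stood at 56.2 against 6.41 CPM and 88.4 against 21.7 CPM. RAC2, the Rac protein of blood cells, stood at 207 CPM in suspended and 28.3 CPM in adherent cells.

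**Figure D3:**
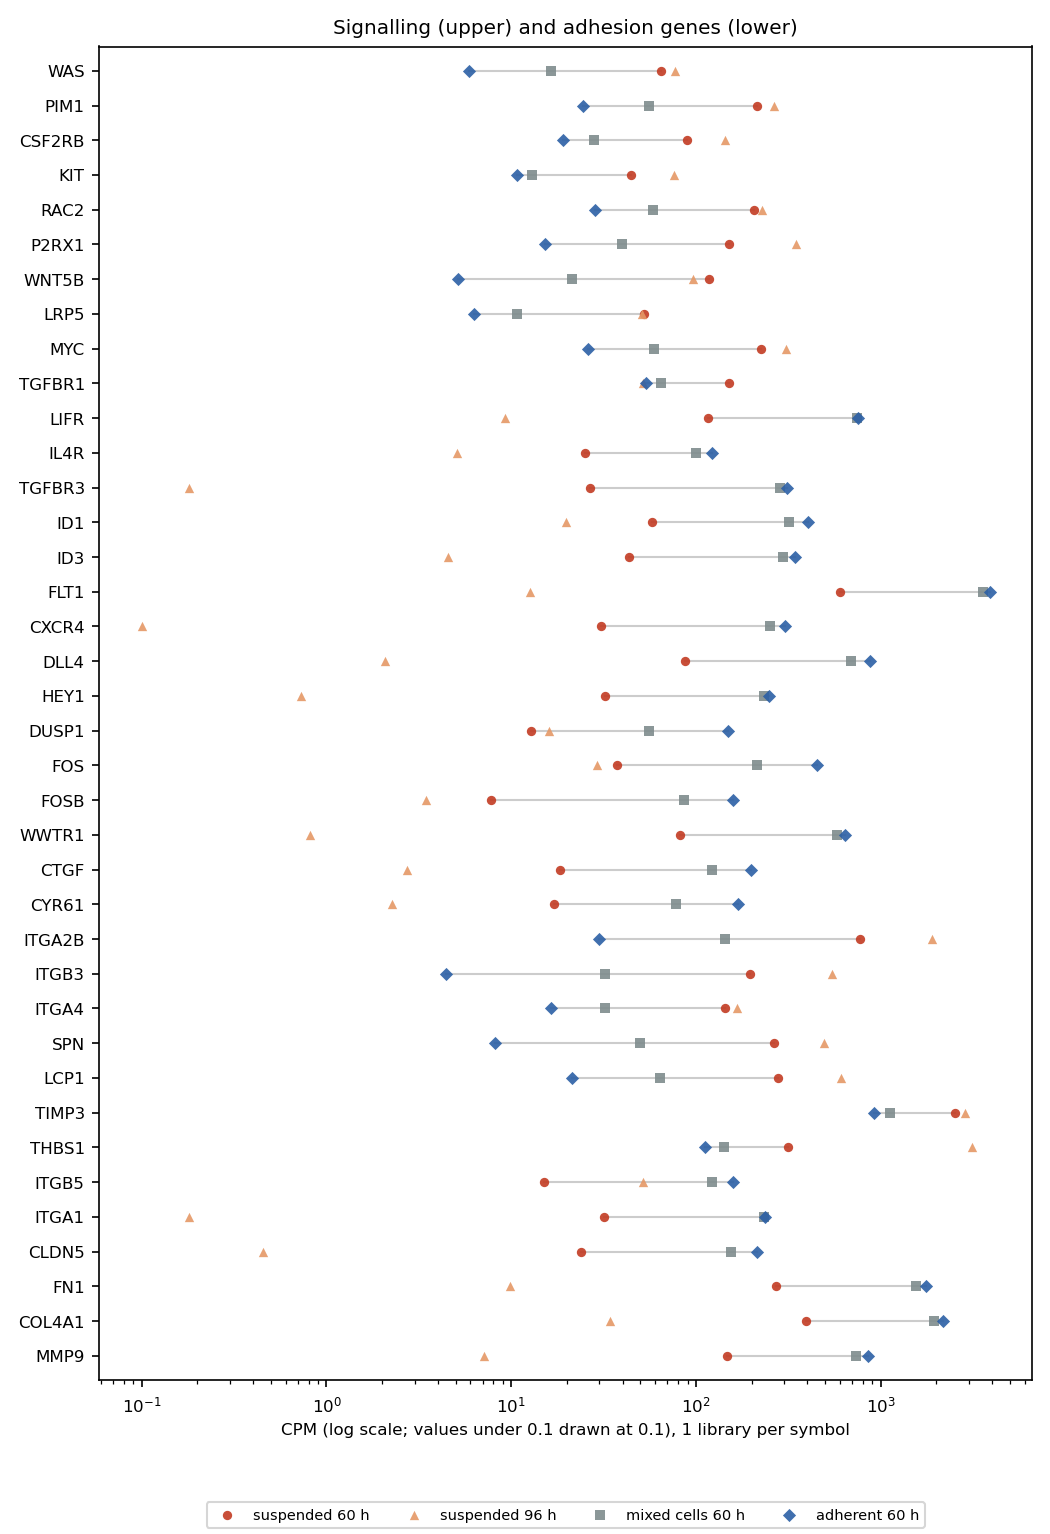
CPM on a log axis of 38 signalling and adhesion genes in suspended cells at 60 h (circles), suspended cells at 96 h (triangles), mixed cells at 60 h (squares) and adherent cells at 60 h (diamonds), 1 library per symbol, with a grey line joining the suspended and adherent libraries of 60 h. The mixed-cell library lay between the pair and nearer to the adherent one for most genes, and CXCR4 and TGFBR3 were under 1 CPM at 96 h.

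The lowest median of the 46 lists was that of cell junctions. Of 33 measured cadherin and junction genes 22 were lower and 1 higher, with a median of -1.91. CLDN5, the claudin of endothelial tight junctions, had 23.9 CPM in suspended and 213 CPM in adherent cells. The endothelial protocadherin PCDH12 had 13.2 and 143 CPM, and CDH13, an anchored cadherin, 34.1 and 293 CPM. CGN, which encodes the tight junction protein cingulin, was the exception at 24.9 CPM in suspended and 10.6 CPM in adherent cells.

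Integrin chains differed in both directions. Of 17 measured 9 were lower and 4 higher (median -1.32). The platelet fibrinogen receptor is made of ITGA2B and ITGB3, which stood at 774 against 29.7 CPM and 197 against 4.44 CPM. ITGA4, the alpha 4 chain with which blood progenitors bind VCAM1 and fibronectin, stood at 143 CPM in suspended and 16.4 CPM in adherent cells (3.12, interval 2.86 to 3.40). The collagen-binding chains ITGA1 and ITGA10 had 31.6 against 237 CPM and 8.05 against 83.9 CPM. ITGA5, the fibronectin chain, had 180 and 977 CPM, its partner ITGB1 666 and 1663 CPM, and the vitronectin chain ITGB5 14.9 and 159 CPM. ITGB5 was higher again in suspended cells at 96 h, at 51.4 CPM.

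Basement membrane and matrix genes were lower for 27 and higher for 7 of 41 measured (median -1.48), and their sum was 5790 CPM in suspended and 17307 CPM in adherent cells. Fibronectin, FN1, had 272 CPM in suspended cells and 1751 CPM in adherent cells (-2.69, interval -2.76 to -2.62). The 2 chains of vascular collagen IV, COL4A1 and COL4A2, had 392 against 2170 CPM and 441 against 2075 CPM. COL6A2 and the endothelial MMRN2 were lower by 2.79 and 2.95 on the log2 scale. The members on the other side included platelet granule proteins: THBS1, thrombospondin, stood at 314 CPM in suspended and 112 CPM in adherent cells, and MMRN1, multimerin, at 230 and 87.3 CPM. COL6A3 stood at 28.3 and 6.65 CPM, so the 2 collagen VI chains named differed in direction. COL2A1 and COL24A1, fibrillar collagens that the list did not hold, were among the 15 largest ratios of all, at 66.0 against 1.11 CPM and 107 against 4.31 CPM. THBS1 and COL24A1 stood at 3131 and 865 CPM in suspended cells at 96 h.

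Proteases that cut matrix and their inhibitors were lower for 16 and higher for 3 of 27 measured. MMP9, gelatinase B, had 146 CPM in suspended cells and 858 CPM in adherent cells, PLAU, urokinase, had 18.8 and 155 CPM, and the collagenase MMP1 had 6.90 and 50.9 CPM. TIMP3, an inhibitor that binds to matrix, stood at 2525 CPM in suspended and 921 CPM in adherent cells (1.45, interval 1.42 to 1.49). Of 30 measured surface mucins, selectins and immunoglobulin adhesion molecules 14 were lower and 6 higher. SPN, the sialomucin CD43, stood at 264 CPM in suspended and 8.13 CPM in adherent cells, SELPLG, the ligand of P-selectin, at 24.1 and 2.59 CPM and CD226 at 41.7 and 0.986 CPM. SELE, which encodes E-selectin on endothelium, had 20.8 CPM in suspended and 156 CPM in adherent cells, and CEACAM1 had 2.73 and 39.2 CPM.

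Genes of focal adhesions and of the actin skeleton moved less. Of 38 measured focal adhesion genes 15 were lower, 5 higher and 18 within 2-fold, and of 36 actin genes 11 were lower, 4 higher and 21 within 2-fold. TNS2 and TNS3, tensins that tie integrins to actin, had 19.0 against 138 CPM and 24.0 against 156 CPM, and CAV2 of caveolae 6.32 against 55.2 CPM. PTK2B, the blood cell relative of focal adhesion kinase, stood at 69.7 CPM in suspended and 7.88 CPM in adherent cells. The actin bundler LCP1 and the Arp2/3 regulator CORO1A, both of leukocytes, stood at 278 against 21.3 CPM and 39.8 against 2.34 CPM. CALD1 and MARCKS, which bind actin in attached cells, had 75.8 against 347 CPM and 129 against 727 CPM. ACTB itself was within 2-fold at 6712 CPM in suspended and 4696 CPM in adherent cells. Tetraspanins and surface proteases showed 13 lower and 4 higher of 29 measured, with TSPAN32, a tetraspanin of blood cells, at 130 and 4.07 CPM and the ectonucleotidase NT5E at 13.1 and 92.3 CPM.

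Among metabolic lists, haem and iron had the most members past 2-fold. Of 27 measured 12 were higher and 2 lower (median 0.89). ALAS2, which starts haem synthesis in red cells, stood at 49.9 CPM in suspended cells and 0.370 CPM in adherent cells (3 counts; 7.08, interval 5.52 to 9.36). SLC40A1, the iron exporter ferroportin, stood at 449 and 27.7 CPM (4.02, interval 3.82 to 4.22). The transferrin receptor TFRC, which brings iron in, stood at 468 and 106 CPM, and the endosomal iron reductase STEAP3 at 32.6 and 5.79 CPM. Importer and exporter were thus both higher in suspended cells. HEBP1, a haem-binding protein, was lower at 10.8 CPM in suspended and 60.5 CPM in adherent cells.

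Nucleotide and one-carbon genes were higher for 11 and lower for 1 of 36 measured (median 0.86). The mitochondrial folate enzyme MTHFD2 stood at 425 CPM in suspended cells and 77.6 CPM in adherent cells (2.45, interval 2.33 to 2.58). ATIC, of purine synthesis, stood at 155 CPM in suspended and 49.9 CPM in adherent cells. PSAT1 of serine synthesis was higher at 95.3 against 41.4 CPM, whereas PHGDH, the enzyme before it, was within 2-fold at 62.0 and 70.3 CPM. SAMHD1, which breaks nucleotides down, was the 1 lower member, at 13.1 CPM in suspended and 29.7 CPM in adherent cells.

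Glycolysis genes were within 2-fold for 23 of 26 measured, with 3 higher, none lower and a median of 0.32. GAPDH stood at 3089 CPM in suspended and 2839 CPM in adherent cells. The 3 higher members were PFKFB2 at 108 against 26.0 CPM and PFKFB4 at 49.7 against 24.8 CPM, which set the level of an activator of glycolysis, and LDHB at 989 against 450 CPM. PFKFB4, at a log2 ratio of 1.01, was just past the threshold. Genes of the citric acid cycle and of mitochondrial import were the most uniform list, with 37 of 38 within 2-fold and a median of 0.53. Citrate synthase, CS, stood at 298 and 206 CPM. Its 1 exception was PPARGC1A, the coactivator of mitochondrial biogenesis, at 2.73 CPM in suspended cells and 34.7 CPM in adherent cells (a log2 ratio of -3.67).

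Cholesterol synthesis had 4 lower, none higher and 20 within 2-fold of 24 measured (median -0.41). The lower share of 16.7% was near the 14.9% of all measured genes. The 4 included the synthetic enzymes MSMO1 at 88.1 CPM in suspended and 233 CPM in adherent cells and MVD at 97.0 and 206 CPM. Among fatty acid and phospholipid genes 7 were higher and 3 lower of 31, or 32.3% past 2-fold, near the 28.0% of all measured genes. PTGS1, the cyclooxygenase of platelets, stood at 306 CPM in suspended cells and 17.2 CPM in adherent cells, and CPT1A, which admits fatty acids to mitochondria, at 49.7 and 8.75 CPM. The lipases LPL and LIPG, which act on the vessel wall, had 137 against 804 CPM and 8.62 against 67.5 CPM. Redox genes were within 2-fold for 30 of 37, with the biliverdin reductase BLVRB (74.7 against 19.6 CPM) and catalase, CAT (78.1 against 22.2 CPM), on the higher and the quinone reductase NQO1 (34.4 against 200 CPM) on the lower side. Amino acid transport genes went both ways, 6 higher and 5 lower of 25, with the transporter SLC7A5 at 91.7 CPM in suspended and 26.6 CPM in adherent cells and SLC1A4 at 33.3 and 253 CPM. Of 28 lysosome and vesicle genes 6 were higher and 5 lower. STXBP5, a regulator of vesicle fusion, stood at 655 CPM in suspended and 71.9 CPM in adherent cells, and RAB27B, which releases platelet granules, at 46.4 and 6.04 CPM.

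Among RNA genes, those of splicing, translation and decay were mostly within 2-fold. The share past 2-fold was 37.0% for ribosome biogenesis, all on the higher side, and 35.7% for RNA-binding regulators, on both sides. For all measured genes it was 28.0%. Of 46 ribosome biogenesis genes 17 were higher and none lower (median 0.89). RCL1, a factor of small subunit assembly, stood at 50.6 CPM in suspended cells and 11.2 CPM in adherent cells. WDR12 of large subunit assembly stood at 94.6 and 33.8 CPM, the histone chaperone NPM3 at 36.8 and 12.3 CPM, and the nucleolar helicase DDX21 at 427 and 177 CPM. With TMM scaling 13 of the 46 passed 2-fold. Translation factors and tRNA synthetases were within 2-fold for 39 of 42 measured, and the 3 higher were tRNA synthetases: IARS at 484 against 183 CPM, LARS at 282 against 124 CPM and MARS at 266 against 132 CPM. MARS, at a log2 ratio of 1.01, was not past 2-fold with TMM scaling, which left 2 higher. EEF1A1 and EEF2, elongation factors, stood at 9021 against 6986 CPM and 2951 against 2067 CPM, which was within 2-fold. Reads of EEF1A1, NPM1, PTMA, HNRNPA1 and ACTB can also fall on close pseudogene copies.

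Splicing factors were within 2-fold for 43 of 46, with a median of 0.57. HNRNPA1 at 1026 CPM in suspended and 501 CPM in adherent cells and SNRPD1 at 106 and 49.8 CPM were just past it, and neither was with TMM scaling. The 1 lower member was PRPF8, a core spliceosome protein, with 0.431 CPM (3 counts) in suspended cells and 12.9 CPM in adherent cells (-4.91, interval -7.21 to -3.32). It had no count in suspended cells at 96 h and 0.293 CPM in mixed cells, so its ratio rested on the adherent library. RNA decay, microRNA and RNA modification genes were within 2-fold for 42 of 45 (median 0.26). The 3 higher ones, the deadenylase scaffold CNOT1 (507 against 245 CPM), the decapping enzyme DCP2 (121 against 58.5 CPM) and the exosome subunit EXOSC2 (56.9 against 28.1 CPM), were also not past 2-fold with TMM scaling.

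The RNA-binding regulators were wider, with 6 higher and 9 lower of 42 measured and a median of 0.15. MBNL3, a muscleblind splicing regulator, stood at 59.1 CPM in suspended cells and 5.54 CPM in adherent cells (3.41, interval 2.97 to 3.89), and CELF2, which acts against muscleblind proteins at shared exons, at 189 and 35.1 CPM. LIN28A, which blocks the maturation of let-7 microRNAs in embryonic and fetal cells, stood at 425 and 91.7 CPM (2.21, interval 2.10 to 2.33), and LIN28B at 214 and 101 CPM. The fetal mRNA-binding proteins IGF2BP1 and IGF2BP3 were within 2-fold. On the lower side RBPMS, a splicing regulator of contractile cells, had 40.2 CPM in suspended and 142 CPM in adherent cells, RBMS2 had 47.3 and 150 CPM, and ZFP36, which destroys AU-rich messages, had 26.9 and 84.8 CPM. ZFP36 had 35.3 CPM in the mixed cells and 60.8 CPM in suspended cells at 96 h, so its ratio rested largely on the adherent library.

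Chromatin genes were mostly within 2-fold, as were most measured genes, of which 28.0% were past it. Apart from transcription factors, the share past 2-fold ran from 9.52% for histone demethylases to 19.0% for deacetylases and corepressors. Histone variants and architectural proteins, at 29.2%, were near the share of all genes. Of 21 histone demethylases 19 were within 2-fold. KDM6A and KDM6B, the lysine 27 demethylases in the title of the series, were among these, at 57.8 against 34.5 CPM and 124 against 75.0 CPM, with log2 ratios of 0.74 and 0.73. KDM1B, a lysine 4 demethylase, was higher at 41.4 CPM in suspended and 15.9 CPM in adherent cells, and KDM7A lower at 12.9 and 35.2 CPM. Of 28 measured Polycomb genes 24 were within 2-fold (median 0.47). SUZ12, a core subunit of the lysine 27 methyltransferase, was higher by 1.04, which was not past 2-fold with TMM scaling, and its catalytic subunit EZH2 stood just inside the threshold at 0.96 (95.6 against 49.2 CPM), while EZH1 stood at -0.96. PHC2 and CBX2, of the other Polycomb complex, were lower at 76.2 against 252 CPM and 34.1 against 72.4 CPM.

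DNA methylation genes had no lower member among 18 measured and 2 higher ones. The higher share of 11.1% was near the 13.1% of all measured genes. DNMT3B, a de novo methyltransferase, stood at 274 CPM in suspended cells and 102 CPM in adherent cells (1.43, interval 1.31 to 1.55), and TET3, which oxidises methylcytosine, at 84.4 and 34.7 CPM. TET1 and TET2 were within 2-fold. Histone methyltransferases had 2 higher and 5 lower of 37, the lower ones including the PR domain factors MECOM, at 24.4 CPM in suspended and 187 CPM in adherent cells, and PRDM1, at 7.33 and 33.3 CPM. Among 42 measured deacetylase and corepressor genes 34 were within 2-fold. The 3 largest ratios were the corepressor CBFA2T3 at 203 against 13.7 CPM (3.89, interval 3.61 to 4.18) and the repressors GFI1B at 184 against 21.3 CPM and GFI1 at 59.9 against 7.27 CPM, which recruit the lysine demethylase KDM1A. KDM1A itself stood at 287 and 153 CPM, within 2-fold.

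Remodeller genes were within 2-fold for 26 of 30 measured. DPF3, a reader subunit of the BAF complex, stood at 21.8 CPM in suspended and 2.34 CPM in adherent cells, BCL7A, also of BAF, at 47.1 and 17.6 CPM, and the ISWI motor SMARCA1 at 43.6 and 159 CPM. Of 31 acetyltransferase and bromodomain genes 27 were within 2-fold, and their median of 0.11 became -0.01 with TMM scaling. BAZ1A, a partner of the other ISWI motor, stood at 203 and 68.9 CPM, and CECR2 at 40.5 and 88.7 CPM. Of 48 histone variants and architectural proteins 12 were higher and 2 lower (median 0.67). HMGA1 and HMGA2, closely related proteins that bend AT-rich DNA, went opposite ways. HMGA1 stood at 1574 CPM in suspended cells and 461 CPM in adherent cells (1.77, interval 1.72 to 1.82) and HMGA2 at 109 and 485 CPM (-2.16, interval -2.27 to -2.04). Both kept their side at 96 h, at 1364 and 25.9 CPM.

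**Figure D4:**
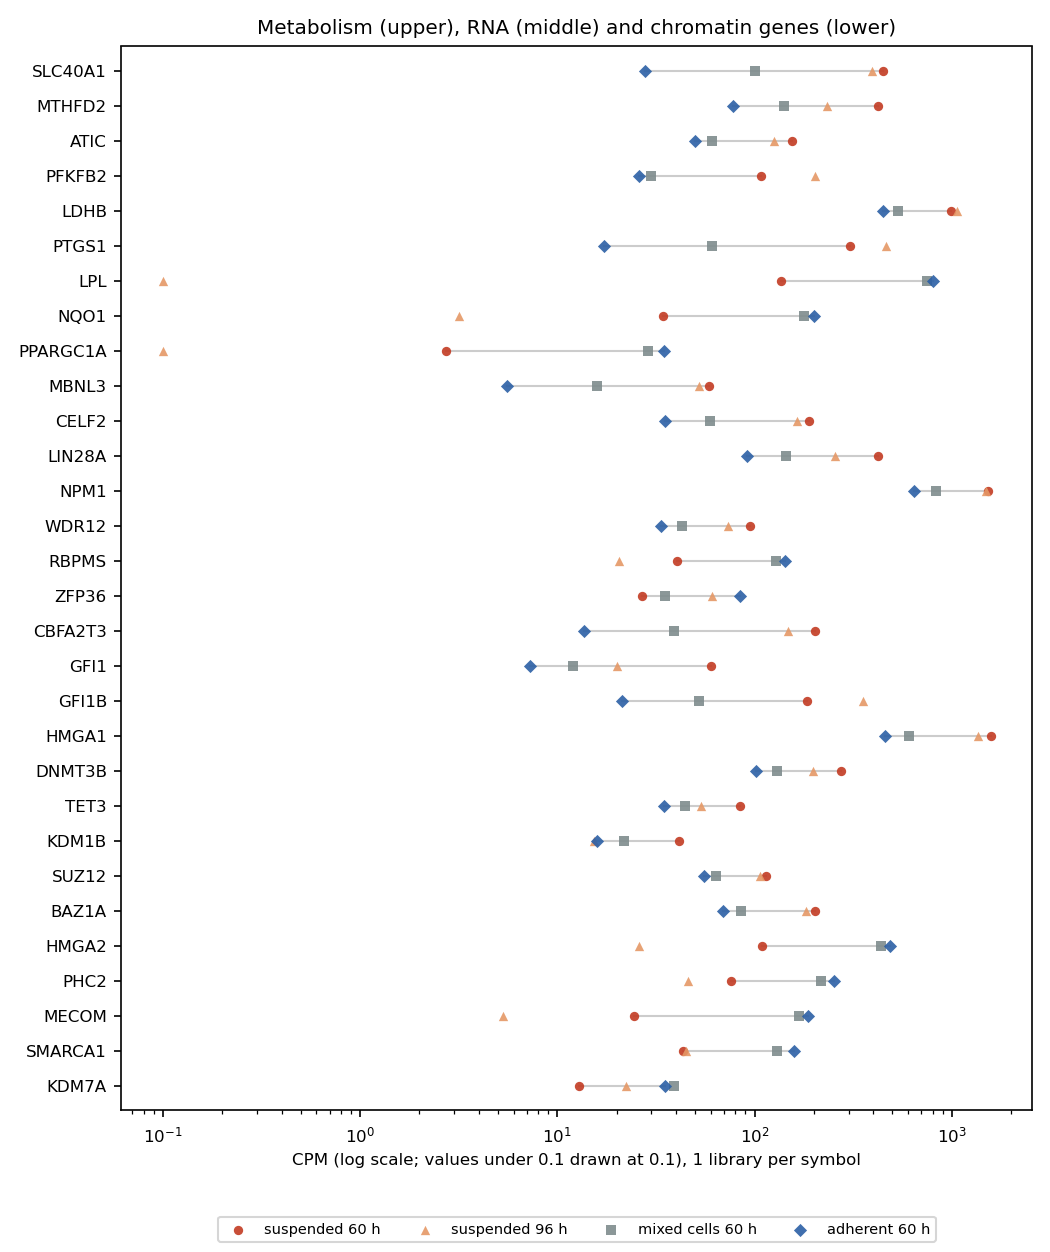
CPM on a log axis of 30 metabolic, RNA and chromatin genes in suspended cells at 60 h (circles), suspended cells at 96 h (triangles), mixed cells at 60 h (squares) and adherent cells at 60 h (diamonds), 1 library per symbol, with a grey line joining the suspended and adherent libraries of 60 h. HMGA1 and HMGA2 lay on opposite sides, and LPL and PPARGC1A were at 0 in suspended cells at 96 h.

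Transcription factors parted by lineage. Of 39 measured haematopoietic factors 22 were higher and 3 lower (median 1.19). GATA2, whose reporter was used for the sort, stood at 965 CPM in suspended cells and 172 CPM in adherent cells (2.49, interval 2.41 to 2.57) and at 309 CPM in suspended cells at 96 h. GATA1, the red cell and platelet factor, stood at 136 CPM in suspended and 3.45 CPM in adherent cells, and KLF1, the red cell factor, at 93.7 and 1.72 CPM. NFE2, which drives platelet formation, stood at 216 and 10.8 CPM. ERG and GATA3, which are also active in endothelium, were lower at 37.7 against 257 CPM and 14.4 against 71.5 CPM. MEIS1 did not separate the fractions, at 181 and 180 CPM. Of 38 measured endothelial and other factors 24 were lower and 1, TAL1, was higher (median -1.89). The flow-responsive KLF2 had 3.31 CPM in suspended and 57.4 CPM in adherent cells (-4.12, interval -4.79 to -3.52), and SOX17, of arterial endothelium, had 17.8 and 104 CPM.

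Since GATA factors stood high in suspended cells, promoters were searched for the GATA hexamers AGATAA and TGATAA on both strands, in the 250 bases before and 50 after each gene's start in the RefSeq table of GRCh38.p14. A hexamer was present in 129 of 1166 promoters of genes higher in suspended cells (11.1%), in 147 of 1344 of genes lower (10.9%), and in 811 of 9486 of all measured genes (8.55%). The share over all 35116 promoters of the table was 16.3%. The RUNX letters TGTGGT were in 10.4% of promoters of higher and 10.3% of lower genes, against 9.65% of all measured. The AP-1 letters TGACTCA were in 35 promoters of higher and 70 of lower genes (5.21% of the lower set), against 3.27% of all measured. These shares set no direction apart for GATA and RUNX letters. A match is a description of letters and not a binding site. Shown here are the 150 bases before the start of 3 genes at high ratios that hold 1 hexamer each, given because KLF1 and GFI1B are regulators named above and RHAG is the Rh-associated red cell channel. The hexamer or its complement is in capitals. They are KLF1 at chr19:12887202-12887351 on the minus strand, RHAG at chr6:49636840-49636989 on the minus strand and GFI1B at chr9:132978544-132978693 on the plus strand, with the first base of the hexamer 66, 31 and 116 bases before the start.
KLF1: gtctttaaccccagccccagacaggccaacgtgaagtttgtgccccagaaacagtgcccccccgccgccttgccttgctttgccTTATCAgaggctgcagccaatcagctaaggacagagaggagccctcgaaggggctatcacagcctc
RHAG: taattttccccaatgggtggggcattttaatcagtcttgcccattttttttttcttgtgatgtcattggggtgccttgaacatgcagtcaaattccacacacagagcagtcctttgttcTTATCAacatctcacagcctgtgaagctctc
GFI1B: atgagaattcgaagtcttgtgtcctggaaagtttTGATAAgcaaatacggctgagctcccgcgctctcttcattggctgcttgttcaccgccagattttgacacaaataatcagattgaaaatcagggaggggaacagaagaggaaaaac

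The DNA replication and mitosis lists were among the highest medians. The list of cell cycle inhibitors and p53 targets was not, with 3 higher and 7 lower of 27 measured and a median of -0.31. Its 3 higher members were CCND3, CDK6 and GDF15, so the list also held cell cycle genes that are not inhibitors. All 33 DNA replication genes had positive log2 ratios, from 0.42 to 2.04, with 15 past 2-fold and a median of 0.99. ORC1, of the origin complex, stood at 47.7 CPM in suspended and 11.6 CPM in adherent cells and the helicase subunit MCM2 at 193 and 52.1 CPM. All 28 mitosis genes were likewise above 0, from 0.42 to 1.77, with a median of 1.00. AURKA, a spindle kinase, stood at 109 and 31.9 CPM, the kinetochore protein CENPF at 302 and 104 CPM and MKI67 at 366 and 170 CPM. As this median lies at the threshold, the count depended on scaling, with 15 mitosis genes past 2-fold on library totals and 5 with TMM. CCND3, a D cyclin, stood at 531 CPM in suspended and 95.1 CPM in adherent cells, CDK6 at 207 and 87.8 CPM, and the inhibitor CDKN1A, p21, was lower at 102 and 228 CPM. Of 23 apoptosis regulators 17 were within 2-fold, and the 26.1% past it were near the 28.0% of all measured genes. Both the survival protein gene BCL2L1 (212 against 78.1 CPM) and the killer protein gene BCL2L11 (117 CPM in suspended cells, a log2 ratio of 2.34) were higher, and the death receptor FAS was lower (11.2 against 29.9 CPM).

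Outside the marker lists, the largest ratios among protein-coding genes at 50 CPM or more included several that no list held. CD84, an adhesion receptor of platelets and leukocytes, stood at 70.1 CPM in suspended cells, against 0.246 CPM (2 counts) in adherent cells. Its log2 ratio was 8.15 with an interval of 6.29 to 11.2. ASIC4, of the acid-sensing channel family, stood at 54.0 and 0.370 CPM (3 counts). RHAG stood at 233 and 9.73 CPM, the embryonic myosin light chain MYL4 at 150 and 4.56 CPM, and NCKAP1L, the blood cell subunit of the WAVE actin regulator, at 72.9 and 2.83 CPM. GYPE stood at 135 and 3.20 CPM, where reads can be shared with close relatives such as GYPB. DNAJC6, LRRC7 and TREML2 were also among the 15. On the lower side the 15 smallest included the lipid phosphatase PLPP3 with 16.1 CPM in suspended cells and 208 CPM in adherent cells, the protease inhibitor A2M with 10.6 and 137 CPM, and the homeobox gene HLX with 8.62 and 110 CPM.

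By the difference in CPM rather than the ratio, a measure that favours long and abundant transcripts, the nuclear protein-coding genes that gained most in suspended cells, those of the mitochondrial genome left out, were EEF1A1, ACTB, TIMP3, HMGA1, HSP90AA1, EEF2, NPM1 and PTMA. PTMA stood at 1385 CPM in suspended and 544 CPM in adherent cells, and the chaperone HSP90AA1 at 1764 and 711 CPM. Those that lost most, endothelial markers left out, were PLVAP, COL4A1, VIM, COL4A2, FN1, IGFBP4, SPARC and AKAP12. PLVAP, of endothelial fenestrae, had 406 CPM in suspended and 3131 CPM in adherent cells, and VIM, the intermediate filament vimentin, 572 and 2240 CPM.

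Further libraries of cells made with vitamin C bear on how these values sit. One, at 60 h, is labelled a mixture of endothelial and haematopoietic cells with no fraction named (6832232 counts), and the other holds suspended cells at 96 h (11058345 counts). The mixture lay between the suspended and adherent libraries for 1526 of the 1665 higher genes and for 1594 of the 1897 lower genes. On a scale where 0 is the adherent and 1 the suspended level, its median place was 0.17 for the higher and 0.18 for the lower genes. At 96 h, 1599 of the 1665 higher genes stood above the adherent level, 1172 of them by at least 2-fold, and 748 above the suspended level of 60 h. Of the 1897 lower genes 1850 stood below the adherent level at 96 h, 1708 by at least 2-fold and 855 at less than 0.1 times it. These counts share the adherent library with the comparison itself. The place of the mixture and the count above the suspended level of 60 h share the suspended library too. Genes chosen for a large difference between the pair tend to have another library between them. Genes chosen for a low or high adherent level likewise tend to keep that side in another library. No share over all measured genes was set beside these counts, so they are a description.

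**Figure D5:**
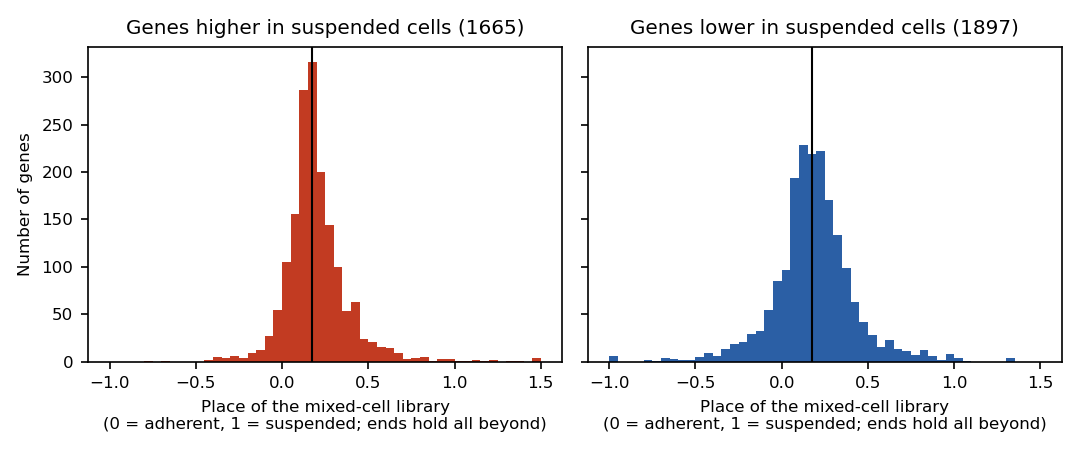
Number of genes by the place of the mixed-cell library of 60 h on a linear scale from the adherent (0) to the suspended level (1), for the 1665 genes higher (left) and the 1897 lower (right) in suspended cells, in steps of 0.05, with a black line at the median. Both distributions peak near their medians of 0.17 and 0.18.

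The lower genes went lower still by 96 h in many of the programmes named. DLL4 stood at 86.7 CPM in suspended cells at 60 h and 2.08 CPM at 96 h, WWTR1 at 81.9 and 0.814 CPM, FN1 at 272 and 9.86 CPM and CXCR4 at 30.5 and 0.0904 CPM (1 count). LPL, at 137 CPM in suspended cells at 60 h, had no count at 96 h. Among the higher genes ALAS2 stood at 49.9 CPM at 60 h and 899 CPM at 96 h. Several regulators, picked after their values were seen, were highest in the suspended cells of 60 h among these 4 libraries: GATA2, RUNX1 (502 CPM at 60 h and 289 CPM at 96 h, against 111 CPM in adherent cells), MYB (231 and 122 CPM, against 48.3 CPM), GFI1 (59.9 and 20.2 CPM, against 7.27 CPM) and LIN28A (425 and 256 CPM, against 91.7 CPM). MTHFD2 and DNMT3B had the same order. The vitamin C library of 0 h, not among these 4, had more LIN28A (453 CPM) and DNMT3B (330 CPM) than the suspended cells of 60 h. It had less RUNX1, MYB, GFI1 and MTHFD2.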

How the data were processed

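RNA sequencing libraries of suspended and adherent cells at 60 h were compared, grouped by their titles. The authors deposited 1 table of raw read counts per library over 58302 gene identifiers, and the 4 tables of sorted cells in the series were not used here. Per the submitters' processing notes, the tools were HTSeq 0.6.0, DESeq 1.18.1, HISAT2 2.0.4 and SAMtools 1.3.1, with hg38 and GRCh38 as builds and no settings given. Per the labels' protocols, libraries were made from total RNA with an Illumina TruSeq RNA kit. Strand and annotation are not given in the sources used here, so reads of overlapping or antisense genes may be misplaced. Genes were named from GENCODE 29, which held 58039 of the identifiers.

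CPM were computed from library totals (Python 3.11.15, SciPy 1.17.1), with exact conditional binomial intervals. Ratios were recomputed with TMM (edgeR 4.0.16) and DESeq2 1.42.0 size factors, other filters, thresholds and added CPM, and the calculation was tested on simulated data. The 46 programme and 10 marker lists and the pair itself were chosen with earlier results of these data known. Genes named were, per list, up to 3 largest and 3 smallest ratios past 2-fold at 20 CPM or more (the 2 with most counts where fewer than 2 passed), the 15 largest ratios each way at 50 CPM or more, the 8 largest differences in CPM each way among nuclear protein-coding genes, and markers. Genes named beyond that rule, such as GATA2, KDM6A, KDM6B, EZH2 and BTK, were chosen after their values were seen. Genes of the Y chromosome, XIST and clone names were passed over, and some items are not reported here.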

Additional observations from a re-analysis of the deposited data

How the results depend on the processing

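No paired analysis was possible because each group is 1 library, and for the same reason no library could be left out and no test made. The count of genes higher in suspended cells was 1665 and that of lower genes 1897. With 5 CPM added to both levels 1014 were higher. With a minimum of 1 CPM the counts were 2760 higher and 2863 lower, with 20 CPM 993 were higher, and with no filter on low counts they were 5253 and 5130. A 1.5-fold threshold gave 3397 higher and 2829 lower, turning the balance, and a 4-fold threshold 557 higher and 836 lower. With TMM scaling, DESeq2 size factors, totals without mitochondrial and haemoglobin genes and 0.5 CPM added, both counts stayed within 1.5 times of those given, at 1332 to 1788 higher and 1856 to 2137 lower. Size factors shifted all ratios by -0.12. Of 1475 recomputed ratios of named genes none changed sign, and 234 moved out of the gene's counting interval. The signs could hardly change. Most named genes were picked past 2-fold, each scaling shifts all ratios by 1 small amount, and CPM added to both levels keeps the sign. Of 424 recomputed list medians 2 changed sign, both of the acetyltransferase and bromodomain list, and 41 moved by more than the counting error typical of their members. Genes near 5 CPM and those with under 4 counts in the lower library have wide intervals.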

Other observations

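A few genes reversed their place relative to adherent cells between the suspended libraries of 60 and 96 h, and were chosen after their values were seen. Of the 1665 genes higher in suspended cells 63 lay below the adherent level at 96 h. NTS, which encodes the peptide neurotensin, stood at 122 CPM in suspended cells at 60 h and 9.22 CPM at 96 h, against 15.2 CPM in adherent cells. ZNF703, a zinc finger gene, stood at 24.1 and 0.543 CPM, against 7.88 CPM, and the transporter SLCO3A1 at 39.8 and 3.26 CPM, against 10.2 CPM. MYCN stood at 172 and 38.5 CPM, against 67.8 CPM, and the haematopoietic growth factor CLEC11A at 248 and 94.4 CPM, against 116 CPM. Of the 1897 lower genes 47 lay above the adherent level at 96 h. DDX58, the interferon-induced RNA sensor RIG-I, had 8.77 CPM in suspended cells at 60 h and 40.4 CPM at 96 h, against 29.4 CPM in adherent cells, and IFIT1, also induced by interferon, had 102 CPM in suspended cells at 96 h, against 48.0 CPM in adherent cells.

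The ratios of TCF20 and YWHAE also rested on 1 library. TCF20, a transcriptional coregulator, stood at 67.7 CPM in suspended cells at 60 h and at 0.0904 CPM in those of 96 h and 0.293 CPM in the mixed cells of 60 h, against 0.246 CPM in adherent cells. YWHAE, a 14-3-3 protein gene, stood at 6.18 CPM in suspended cells at 60 h, 6.15 CPM at 96 h and 6.29 CPM in the mixed cells, against 80.1 CPM in the adherent library. What set these single libraries apart was not tested.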
